A study of Mus musculus with 7 samples.

Results

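Myf5SOR+ Sdc4+ cells were set against the other Sdc4+ populations of the study, Cspg4- Sdc4+ cells and CD1 Sdc4+ cells, each measured on 1 array, so that 3 of the 7 arrays of the series carry the comparison. The study asked where the skin cells that can form muscle come from. Myf5SOR+ cells came from mice of the line B6.129S4-Myf5tm3(cre)Sor /J, in which Cre recombinase is knocked into Myf5. Cspg4- cells came from the line B6,FVB-Tg(Cspg4-cre)1Akik/J, in which a transgene carries Cre under Cspg4. CD1 cells came from the outbred stock Crl:CD1(ICR), for which the labels name no Cre. All 3 populations carry the Sdc4+ label, and each pooled 8 to 10 animals, with 10 to 200 ng of RNA. The remaining arrays held B195AP+ Sdc4- cells (line B195AP-Cre, with no driver given), Cspg4- Sdc4- cells, CD1 Sdc4- cells and Cspg4+ cells. No population was repeated and each of the 3 Sdc4+ arrays came from another mouse line, so the traced population, its line and its pool of animals cannot be told apart. The labels give neither the age of the animals nor the sorting gates. In such bulk samples fewer cells of a type and less RNA per cell cannot be told apart either.

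A gene was described where the Myf5SOR+ value lay outside the values of both other Sdc4+ arrays. Of 34942 gene names on the array, 17332 were well above background on all 3 Sdc4+ arrays. Myf5SOR+ lay outside both others for 11566 of these, and by at least 2-fold for 250.

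Myf5 is among the first myogenic regulators switched on in the embryo, and Cre expressed from its locus marks its descendants for good, whether or not they still express Myf5. Muscle satellite cells, brown fat precursors and part of the dorsal dermis arise from embryonic cells of the dermomyotome, some of which pass through Myf5 expression. Sdc4 encodes syndecan-4, a heparan sulfate proteoglycan of satellite cells that is also made by many other cells, and Cspg4 encodes the NG2 proteoglycan of pericytes.

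Levels are given below as log2 intensity relative to the 75th percentile of the same array, so that 1 unit is 2-fold and 0 is the 75th percentile. The 3 Sdc4+ arrays had between 45.9% and 50.8% of their spots well above background. The arrays shared a slide, on which the 3 Sdc4+ arrays lay in the same row. The number of arrays limits the precision, and no value of a population has an SD.

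Transcripts of the genes that name the populations were read first. Sdc4 (probe on chromosome 2, 164251211 to 164251270, mm9) was at 3.80 on the Myf5SOR+ Sdc4+ array, 6.29 on the Cspg4- Sdc4+ array and 6.35 on the CD1 Sdc4+ array. The Myf5SOR+ value was therefore 5.63-fold below the nearer of the others, and it was also below the Cspg4- Sdc4- (5.11), CD1 Sdc4- (5.28) and Cspg4+ (5.41) arrays. Only the B195AP+ array was lower (1.98), and its Sdc4 spot lay in a streaked part of that array. Sdc4 had no second probe, and on this 1 probe the order of the transcript over the arrays is not that of the Sdc4+ label. The label comes from sorting by gates that are not given, whereas the array reads RNA, so these are unlike measures. The transcript was still well above background on the Myf5SOR+ array. That is the only array of its population, so no result can be given without it. Myf5, Pax7 and Pax3, which mark muscle progenitors, were not well above background on any of the 7 arrays. Myod1, the regulator that follows Myf5 in muscle commitment, was so on the CD1 Sdc4- array alone. Cspg4 was at -0.58 on the Myf5SOR+ array, 0.35 on the Cspg4- Sdc4+ array and 1.18 on the CD1 Sdc4+ array. The mesenchymal receptors Pdgfrb (3.49, against 3.76 and 3.89) and Pdgfra (4.31, against 4.63 and 4.69) were high on the 3 arrays, with Myf5SOR+ slightly below both others. Fibroblast genes were detected throughout: 24 of 26 listed dermal fibroblast genes were well above background on each, and the Myf5SOR+ array lay outside both others by 2-fold for 0 of the 23 measured on the 3.

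The 3 Sdc4+ profiles were close to each other. Over the 17332 genes, Myf5SOR+ correlated with Cspg4- Sdc4+ at r = 0.988 and with CD1 Sdc4+ at r = 0.977, while the latter arrays correlated at r = 0.979; these are correlations across genes, which are not independent replicates. A 2-fold difference separated Myf5SOR+ from Cspg4- Sdc4+ at 679 genes (3.92%) and from CD1 Sdc4+ at 1404 (8.10%), and the other pair differed at 1254 (7.24%). The Myf5SOR+ and Cspg4- Sdc4+ arrays were thus the closest pair of the 3. Myf5SOR+ was above both others at 7658 genes (44.2%) and below both at 3908 (22.5%), with a median difference of 0.11 from their mean. A gap of at least 2-fold left 89 genes above both (0.514%) and 161 below both (0.929%). When each difference was centred on the median gene the split was 68 above and 201 below. The genes just inside the 2-fold limit were Vmn2r111 (1.001) and Mrgprg (-1.001), and just outside it were Areg (0.995) and Vipr1 (-0.997).

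**Figure D1:**
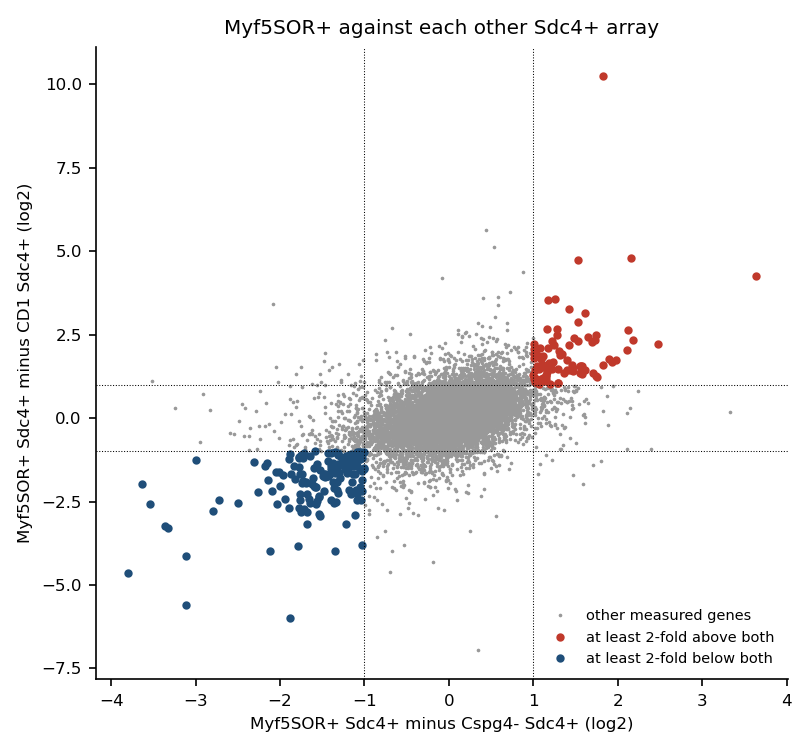
Difference of the Myf5SOR+ Sdc4+ array from the Cspg4- Sdc4+ array (x axis) and from the CD1 Sdc4+ array (y axis) in log2 units for 17332 genes; each point is a gene and dotted lines mark 2-fold. The 89 red genes lie at least 2-fold above both arrays and the 161 blue genes at least 2-fold below both.

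No gene passed the test across all genes. In limma, with 4 group means over the 7 arrays and Benjamini-Hochberg adjustment over 19739 genes, 0 genes (0%) had an adjusted p under 0.05 and 502 (2.54%) had an unadjusted p under 0.05. The lone Myf5SOR+ array was assumed to vary like the arrays of the other groups, whose spread is that between mouse lines. That spread also takes in the streaked part of the B195AP+ array, which is in the Sdc4- group. The smallest adjusted p was 0.999956, so every difference below is a description of these arrays with no call. A permutation of 1 array against 2 cannot give a one-sided p below 0.333. Second probes of a gene gave a check within each array. Of the 89 genes above both, 18 had a second probe above background on the 3 arrays; it also placed Myf5SOR+ above both in 17 of 18 and by 2-fold in 8. Of the 161 below both, 27 had a second probe; it placed Myf5SOR+ below both in 25 of 27 and by 2-fold in 16. Over all 4204 genes with a second probe, 38.7% of second probes placed Myf5SOR+ above both and 28.0% below, and 0.785% did so by 2-fold in each direction. A second probe shares the RNA of its array, so it bears on the probe and not on the population.

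Among the lower genes Lamc3 had the largest gap. Lamc3, the laminin gamma 3 chain of basement membranes (probe on chromosome 2, 31801996 to 31802055, mm9), was at -2.04 on the Myf5SOR+ array, 1.76 on the Cspg4- Sdc4+ array and 2.61 on the CD1 Sdc4+ array. It was 13.9-fold below the nearer of both, the largest gap of any gene with a symbol that was measured on the 3, and it was at 0.76 to 3.03 on the other 4 arrays. Its log2 difference from the mean of both was -4.23 (SE 0.899, limma adjusted p = 0.999956). Wif1, a secreted inhibitor of Wnt ligands (chromosome 10, 120537079 to 120537138), was at -0.19, against 2.92 and 5.42. Wif1 also differed 5.67-fold between the other Sdc4+ arrays, so its distance from Myf5SOR+ depends on which of them is taken. Igfbp5, which binds insulin-like growth factors and lies on chromosome 1, was at -2.02, against 1.09 and 2.11. The log2 difference of Igfbp5 from the mean of both was -3.62 (SE 0.656).

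Listed genes of Wnt, BMP and receptor tyrosine kinase signalling and matrix proteases had other lower members. Rspo1, which strengthens Wnt signalling, was at -0.52, against 1.20 and 2.21, and Dkk2, which blocks a Wnt co-receptor, was at -2.37, against -0.64 and -0.50. Rspo1 was also lower on the B195AP+ array (0.31) than on the Cspg4- Sdc4- (2.63) and CD1 Sdc4- (2.49) arrays, whereas Dkk2 was highest there (2.44). Bmp4 (-1.55, against -0.08 and 0.20) and Bmp7 (0.34, against 1.92 and 1.81), both ligands of BMP receptors, were lower than on both others. Spry1, a feedback inhibitor of receptor tyrosine kinases known for holding satellite cells in quiescence, was at -1.02, against 0.73 and 1.26, and at 0.75 to 1.501 on the 4 arrays outside the Sdc4+ group. The Myf5SOR+ array was thus the lowest of the 7 for Spry1, with a log2 difference of -2.02 (SE 0.441). Mmp13, a collagenase, was at -2.76, against -0.87 and 3.22, and Timp3, an inhibitor of matrix proteases, was at 2.42, against 4.14 and 3.46.

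The remaining lower genes with the largest gaps had varied roles, and Chrna1 is given beside them as a member of the list of myogenic regulators. Chrna1, the alpha subunit of the muscle acetylcholine receptor, was at 1.25, against 3.01 and 2.93, and its second probe gave -2.57, against -0.37 and -0.02. Trpv4, a calcium channel, was at -2.64, against -0.55 and -0.44. Rem1, a small GTPase that restrains calcium channels, was at -1.85, against 1.70 and 0.74. Dusp2, a phosphatase of MAP kinases, was at -0.29, against 1.98 and 1.94. Gchfr, which regulates tetrahydrobiopterin synthesis, was at -0.76, against 2.04 and 2.03. F13a1, the clotting factor XIII A subunit that macrophages also make, was at -3.02, against 0.62 and -1.04. Dmkn (-2.15, against 0.57 and 0.30), Syt13 (-1.59, against 0.45 and 0.99) and Sapcd1 (-0.17, against 1.72 and 2.51) were in the same order. Trpv4 and F13a1 no longer lay 2-fold below both when the background was corrected with normexp.

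**Figure D2:**
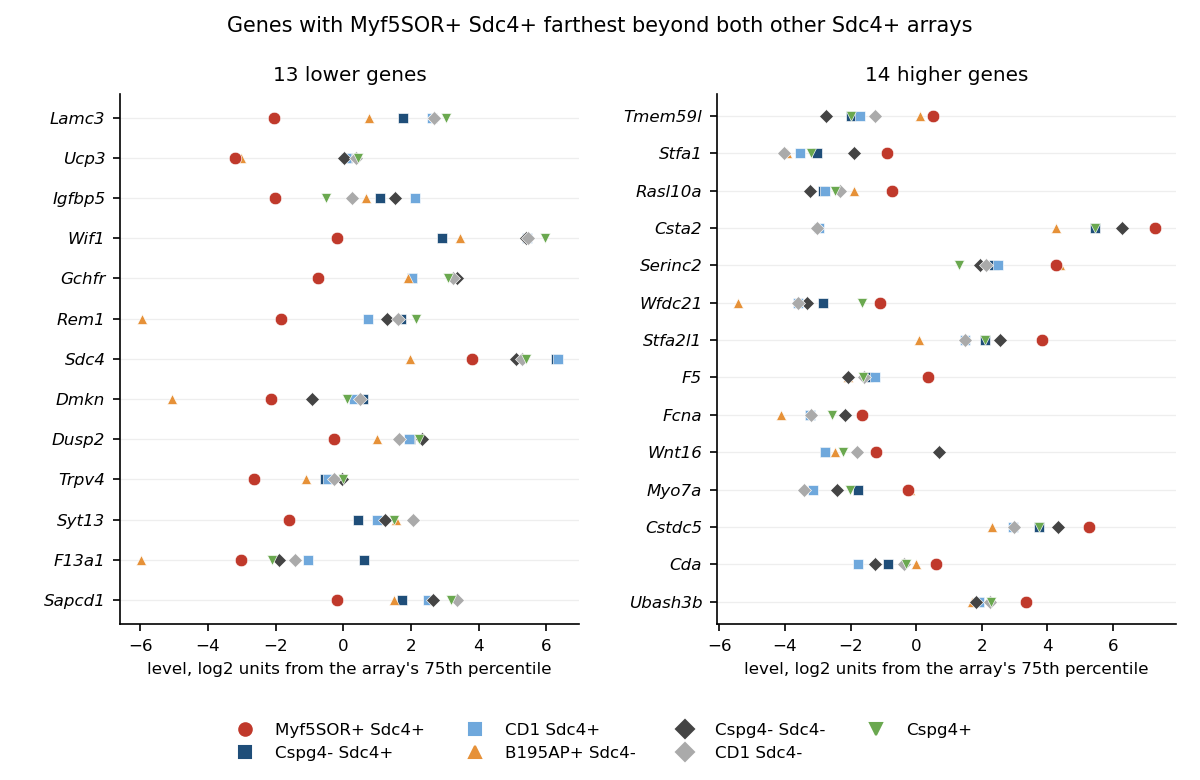
Level of 13 lower (left) and 14 higher (right) genes with the largest gaps on each of the 7 arrays, in log2 units from the 75th percentile of the array (x axis); each symbol is 1 array. Red circles (Myf5SOR+ Sdc4+) lie left of both blue squares (other Sdc4+) in the left panel and right of them in the right panel, which is how the genes were chosen, and B195AP+ triangles lie beside the red circle for Ucp3, Serinc2 and Tmem59l.

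Class I histocompatibility genes, whose products carry peptides to the cell surface, made a group of their own among the lower genes; they were grouped after their values were seen. Of 28 class I H2 genes on the array, 17 were measured on the 3 Sdc4+ arrays. Myf5SOR+ was below both others for 16 of the 17 and 2-fold below for 11, against 0.929% of all genes. Of the 11, all but H2-M11 stayed 2-fold below with normexp background and in the authors' deposited table, and all but H2-Q10 with the mean of a gene's probes. H2-K1 (probe on chromosome 17, 34133055 to 34133114, mm9) was at 5.31 on the Myf5SOR+ array, 6.90 on the Cspg4- Sdc4+ array and 7.38 on the CD1 Sdc4+ array. H2-D1 (35403886 to 35403945) was at 5.10, against 6.83 and 7.06. H2-Q7 (35580315 to 35580374) was at 4.62, against 6.44 and 6.45. The second probe of H2-K1 gave 4.20, against 5.72 and 5.97, and that of H2-Q2 gave 2.42, against 4.02 and 4.34, while the second probe of H2-Q10 placed Myf5SOR+ below both by only 0.12. The 11 differences from the mean of both others lay between -2.07 and -1.20. H2-K1 had a log2 difference of -1.83 (SE 0.666) and H2-D1 of -1.84 (SE 0.704).

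The B195AP+ array shared this low level. All 11 genes were also at least 2-fold lower on the B195AP+ array than on both Cspg4- Sdc4- and CD1 Sdc4- arrays, against 6.01% of 17026 genes. That comparison uses no array of the first. Myf5SOR+ and B195AP+ were the lowest of the 7 arrays for each of the 11. The 11 had been chosen for a low Myf5SOR+ value, and the share of all genes with these arrays lowest was not counted. H2-K1 was at 5.57 on the B195AP+ array and at 6.81 to 7.07 on the 3 others outside the Sdc4+ group, and H2-D1 was at 5.38, against 6.72 to 6.99. Of the 11 genes, 6 had a B195AP+ spot in the streaked part of that array; the other 5 were H2-D1, H2-K2, H2-M11, H2-Q2 and H2-Q7. H2-Q4 lay between the others (6.11, against 6.13 and 5.67), and H2-M3, H2-Q5, H2-T10, H2-T22 and H2-T24 lay below both by less than 2-fold. Class I genes are close copies of each other and differ between mouse lines, so a probe may read several of them or 1 allele better than another; the part of either in these values was not tested. The longest run shared by any 2 of 16 class I probes, H2-Bl left out, was 19 of 60 bases. Probes were compared with each other and not with transcripts, so this cannot show which genes a probe reads.

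Promoters of H2-K1, H2-D1 and H2-Q7 are printed because these genes had like differences. Each runs from 250 bases before to 50 after the RefSeq start (GRCm38.p6), with matches to 4 searched motifs in capitals.
H2-K1 (chr17:34000298-34000597, minus strand): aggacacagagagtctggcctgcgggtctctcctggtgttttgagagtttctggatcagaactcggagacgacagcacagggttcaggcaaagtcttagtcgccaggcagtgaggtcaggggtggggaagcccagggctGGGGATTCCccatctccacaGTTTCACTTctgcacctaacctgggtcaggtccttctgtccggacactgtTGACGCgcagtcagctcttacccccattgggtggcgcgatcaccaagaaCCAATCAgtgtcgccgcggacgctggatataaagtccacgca
H2-D1 (chr17:35262844-35263143, plus strand): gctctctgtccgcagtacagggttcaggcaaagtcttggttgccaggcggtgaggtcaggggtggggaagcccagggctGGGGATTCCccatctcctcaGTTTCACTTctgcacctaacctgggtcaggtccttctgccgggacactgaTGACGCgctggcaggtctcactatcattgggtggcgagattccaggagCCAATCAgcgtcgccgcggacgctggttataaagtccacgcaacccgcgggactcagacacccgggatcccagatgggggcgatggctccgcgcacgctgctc
H2-Q7 (chr17:35438905-35439204, plus strand): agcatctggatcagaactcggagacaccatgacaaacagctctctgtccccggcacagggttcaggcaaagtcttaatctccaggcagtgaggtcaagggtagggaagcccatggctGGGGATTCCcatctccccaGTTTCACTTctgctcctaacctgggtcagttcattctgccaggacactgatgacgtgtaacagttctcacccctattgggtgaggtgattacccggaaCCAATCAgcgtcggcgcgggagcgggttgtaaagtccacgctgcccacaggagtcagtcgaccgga
Both strands were searched, and the motifs do not overlap. The kappa B core of enhancer A, GGGGATTCC, begins 111 bases before the start of H2-K1, 171 before that of H2-D1 and 133 before that of H2-Q7, and 0.259% of 27025 promoters of this length hold it. Letters of the interferon response element, GTTTCACTT, begin 91, 151 and 114 bases before these starts and are in 0.403% of promoters. The site alpha core TGACGC is in the windows of H2-K1 and H2-D1 (7.50% of promoters), and the CCAAT box letters CCAATCA are in all 3 (8.20%). The CCAATCA letters begin 53 bases before the start of H2-D1 and 16 before that of H2-Q7. In H2-K1 they lie after the RefSeq start, from base 9 on, so distances from the start are not alike between these genes. A match describes the letters of the reference genome.

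Genes of the class I pathway, listed after the H2 values were seen, were lower in part. Of 13 such genes, 12 were measured on the 3 arrays, 7 lay below both others, 2 of them by 2-fold, and 3 lay above both (Calr, Canx and Pdia3, chaperones that serve other proteins too). Over all 17332 genes 22.5% lay below both, 0.929% by 2-fold, and 44.2% above both. Nlrc5, the transactivator of class I genes, was at -0.33, against 1.099 and 1.38, and was the lowest of the 7 arrays. Psmb9, a subunit of the immunoproteasome, was at 1.54, against 2.65 and 2.64, and at 2.02 on the B195AP+ array. B2m, the light chain of class I molecules, was at 7.13, against 8.07 and 7.62. Tap1, a peptide transporter, was at -0.86, against -0.05 and 0.35, while Tap2 (3.93, against 3.95 and 4.27) and Irf1 (5.68, against 5.68 and 5.78) lay close to the nearer array. On the B195AP+ array Nlrc5 was at 0.96, against 1.62 and 1.08 on the other Sdc4- arrays, a gap of only -0.12 from the nearer.

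**Figure D3:**
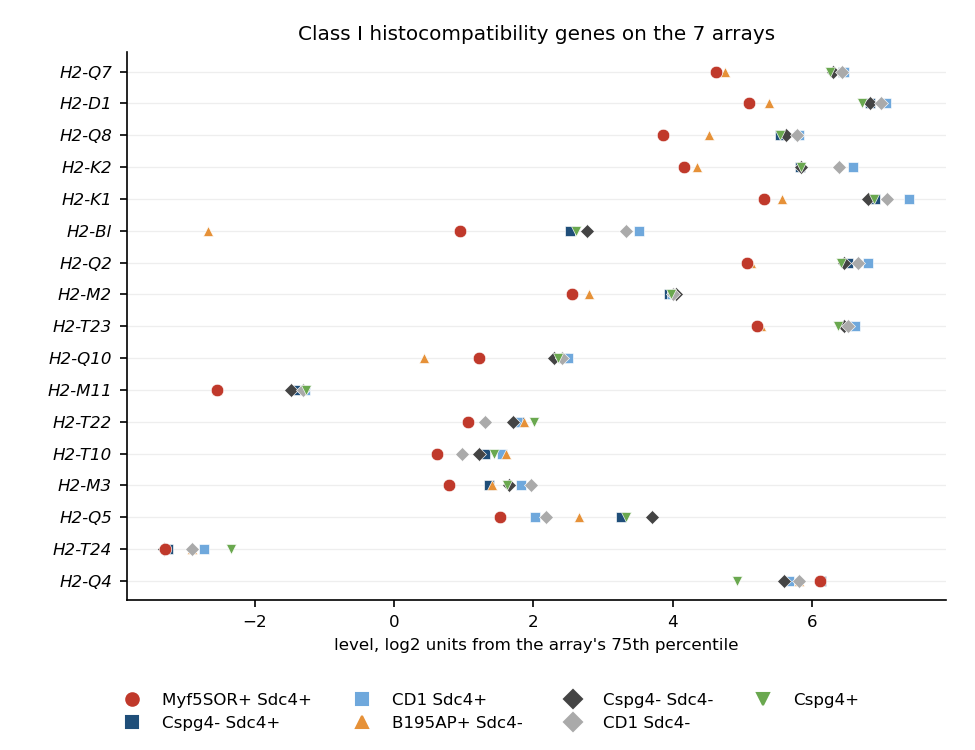
Level of the 17 measured class I histocompatibility genes on each of the 7 arrays, in log2 units from the 75th percentile of the array (x axis), ordered by the gap of Myf5SOR+; each symbol is 1 array. For the first 11 genes the red circle (Myf5SOR+ Sdc4+) and the orange triangle (B195AP+ Sdc4-) lie left of the other 5 arrays.

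Interferon-induced genes took another order. Of 29 listed genes on the array 25 were measured on the 3 arrays. Myf5SOR+ lay between Cspg4- Sdc4+ and CD1 Sdc4+ for 23 of the 25, against 5766 of all 17332 genes. Isg15, a ubiquitin-like modifier, was at 4.49, against 6.06 on the Cspg4- Sdc4+ and 3.51 on the CD1 Sdc4+ array, and Cxcl10, a chemokine, was at 1.69, against 3.85 and 1.24. The median difference of the list was -1.38 from Cspg4- Sdc4+ and 0.74 from CD1 Sdc4+. Class II genes were not lower as a group: of 4 measured on the 3 arrays, 2 lay above both, 1 below both and 1 between. H2-DMb1, which helps load class II molecules, was 2-fold above both (0.69, against -0.49 and -1.42). H2-Ab1 was at 3.42, against 2.88 and -1.70.

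A pair of neighbouring genes was low on both the Myf5SOR+ and B195AP+ arrays. Ucp3, a mitochondrial uncoupling protein of muscle and fat (probe on chromosome 7, 107630399 to 107630458, mm9), was at -3.21, against 0.12 and 0.09, and at -3.01 on the B195AP+ array. Ucp2, its neighbour with probes 17410 bases apart, was at -3.43 and not well above background on the Myf5SOR+ array, against 0.39 and 0.18. Ucp2 was at -3.32 on the B195AP+ array and between 0.02 and 0.54 on the other 3. For both genes the Myf5SOR+ and B195AP+ arrays lay below the other 5. Both were chosen with their low Myf5SOR+ values known, and the share of all genes in this order was not counted. The B195AP+ spot of Ucp2 lay in the streaked part of that array. The probes of the pair share at most 5 bases in a row, but they were not compared with transcripts, so this cannot show which genes they read.

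Promoters of Ucp2 and Ucp3 are printed in the same window, since these neighbours had like values, with matches to the E-box letters CANNTG, which bHLH factors such as Myf5 can bind, in capitals.
Ucp2 (chr7:100493108-100493407, plus strand): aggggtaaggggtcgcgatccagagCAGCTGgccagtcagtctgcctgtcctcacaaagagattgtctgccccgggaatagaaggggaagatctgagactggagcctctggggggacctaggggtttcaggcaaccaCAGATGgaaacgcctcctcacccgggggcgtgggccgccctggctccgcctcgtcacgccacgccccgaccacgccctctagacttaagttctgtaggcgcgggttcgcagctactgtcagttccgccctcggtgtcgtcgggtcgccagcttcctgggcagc
Ucp3 (chr7:100472741-100473040, plus strand): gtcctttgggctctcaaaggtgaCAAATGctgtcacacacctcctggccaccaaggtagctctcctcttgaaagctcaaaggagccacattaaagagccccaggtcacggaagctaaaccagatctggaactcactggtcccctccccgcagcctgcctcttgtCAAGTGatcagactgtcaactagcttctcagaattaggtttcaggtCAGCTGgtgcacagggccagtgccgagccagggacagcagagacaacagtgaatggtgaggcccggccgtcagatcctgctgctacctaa
The E-box letters are the same on both strands; they occur at 2 places for Ucp2 and 3 for Ucp3, and 72.2% of all promoters of this length hold at least 1.

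Genes that were bright on 1 side only were given as bounds, the mean of the bright side against, on the dim side, the higher of the lowest value well above background and the gene's own value. With a bound of at least 2-fold, 143 genes (0.796% of 17969) were bright on both other Sdc4+ arrays and not on Myf5SOR+, and 77 (0.423% of 18210) were bright on Myf5SOR+ only. Of the 143, 106 were bright on both other Sdc4- arrays, and 35 of the 106 were dim on the B195AP+ array by the probe that stood for the gene. Of 17441 genes bright on the 4 Cspg4- and CD1 arrays, 616 (3.53%) had every probe dim on the B195AP+ array. These counts cannot be set against each other as shares. The 106 were also dim on Myf5SOR+, the 17441 hold genes of any level, and the streaked part of the B195AP+ array was kept in. Ifi202b, an interferon-induced gene whose expression is known to differ between mouse strains, was at least 113-fold lower on the Myf5SOR+ array than the mean of both others and at least 30.7-fold lower than the nearer. It was at 1.31 on the Cspg4- Sdc4+ array, 5.06 on the CD1 Sdc4+ array and 4.95 on the CD1 Sdc4- array, and it was dim on the B195AP+ array. Against the same mean Ucp2 was at least 13.1-fold lower (12.2-fold against the nearer) and Mpzl2, an adhesion protein of epithelia, at least 17.1-fold (11.4-fold). Lce1g, an epidermal envelope gene, was at -2.64 and 3.74 on the other Sdc4+ arrays, so its bound of 18.1-fold rests on the CD1 array and is 1.99-fold against the nearer. Cd200, a membrane ligand that restrains myeloid cells, was at least 7.51-fold below the mean, against levels of -0.80 and -0.64 on the other Sdc4+ arrays, and it was at -0.02 on the B195AP+ array. Heyl, a Notch target of satellite and mural cells, was at -2.19 and -1.42 on the other Sdc4+ arrays and dim on Myf5SOR+. Myog, the regulator of muscle differentiation, was at -2.67 and -4.05 there and also dim on Myf5SOR+. The lowest value well above background on Myf5SOR+ was -3.63, so a Myog level like that of CD1 Sdc4+ would be dim there too. On the bright side the bounds were smaller: Lmx1a, a developmental homeobox factor, was at least 3.83-fold higher than the mean (2.65-fold against the nearer) and Fam217b at least 3.63-fold (3.14-fold), and Defb42, Cyp2c67, Slc16a4, Rnf224, Rnf152, Map3k12, Nat8f5 and Slitrk2 followed.

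Markers of other cell types were read beside these genes. Of 22 keratinocyte markers, 9 were well above background on the Myf5SOR+ array and 15 on each of the other Sdc4+ arrays, and the summed level of the list (relative to the 75th percentile, linear) was 30.0, against 38.2 and 61.8. Of the 9 measured on the 3 arrays 2 were above both, 2 below both and 5 between, against 44.2% of all genes above both and 22.5% below both. Krtdap, Krt10, Itga6 and Sfn were those outside both, none of them by 2-fold. Krt17 (at least 12.6-fold below the mean of both and 6.40-fold below the nearer), Krt5 and Krt6a, keratins of basal and follicle cells, and Perp (at least 9.51-fold below the mean and 5.68-fold below the nearer), a desmosome protein, were dim on the Myf5SOR+ array. These dim markers are not among the 9 measured on the 3 arrays and were named with their low values known. Krt1, Krt15, Cdh1, Epcam and Dsg3 were dim on all 3. Of 26 myeloid markers on the array 8 were bright, against 10 and 11, with summed levels of 74.3, against 79.7 and 81.1, and Ptprc, Lyz2, Spi1 and Cd163 were dim on the 3 arrays. Of 15 mast cell markers 4 were bright, against 9 and 5, with summed levels of 1.7, against 5.2 and 1.9, and a median difference of -2.68 from Cspg4- Sdc4+ and 0.45 from CD1 Sdc4+. Cpa3 and Cma1, which define mast cells, were bright on the Cspg4- Sdc4+ array and dim on the other Sdc4+ arrays. Lymphocyte markers had a higher summed level of 145.3, against 62.4 and 106.9, while 8 of 18 on the array were bright on each of the 3 arrays. Of the 8, 5 lay above both, as did 44.2% of all genes, and 2 below both. Thy1 is in this list and also in that of dermal fibroblast genes. The part of keratinocytes, myeloid cells, mast cells and lymphocytes in the differences was not tested.

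The higher genes held a cluster of stefin A genes, inhibitors of cysteine proteases that lie next to each other on chromosome 16. Stfa1 was at -0.89 on the Myf5SOR+ array, -3.02 on the Cspg4- Sdc4+ array and -3.54 on the CD1 Sdc4+ array. Stfa2l1 was at 3.83, against 2.09 and 1.48, and Cstdc5 at 5.26, against 3.73 and 2.94. Csta2 was at 7.29, against 5.47 and -2.97, and it was near -3 on both CD1 arrays. The log2 difference of Csta2 from the mean of both others was 6.04 (SE 4.648), while it was 3.54-fold above the Cspg4- Sdc4+ array. None of these 4 was above both Sdc4- comparators on the B195AP+ array: Cstdc5 was at 2.31 there, against 4.33 and 2.97. Neighbours differed, as Cstdc4 lay above both by 0.77 and Csta3 and Stfa3 lay between the others. Stefin A genes are close copies, and the longest run shared by 2 of 7 probes was 25 of 60 bases (Csta2 and Cstdc5), so values of single members are uncertain.

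The other higher genes had varied roles. Tmem59l, a membrane protein (chromosome 8, 73007828 to 73007887, mm9), had the largest gap in this direction among genes chosen by the rule. It was at 0.51, against -1.97 and -1.72, or 4.70-fold above the nearer, with a log2 difference of 2.36 (SE 1.072). Serinc2 was at 4.28, against 2.38 and 2.49, with a second probe at 3.58, against 1.76 and 1.86. Tmem59l (0.12, against -2.74 and -1.25) and Serinc2 (4.38, against 1.94 and 2.12) were also high on the B195AP+ array. Ubash3b, a phosphatase that dampens receptor signals, was at 3.37, against 1.93 and 1.92, and its second probe gave 1.34, against -0.05 and -0.25. Wnt16 was at -1.24, against -2.79 on both, although its level on the Cspg4- Sdc4- array was higher (0.70), and its second probe lay above both by 0.47. F5, clotting factor V, was at 0.36, against -1.46 and -1.24, and Fcna, a ficolin of the complement system, at -1.66, against -3.22 on both. Myo7a, an unconventional myosin, was at -0.25, against -1.79 and -3.13, and Cda, cytidine deaminase, at 0.61, against -0.87 and -1.79. Rasl10a was at -0.73, against -2.83 and -2.77, and Wfdc21 at -1.09, against -2.84 and -3.59. Iqcc was left out of the rule because its second probe lay below both others (-0.54). With normexp background correction Stfa1, Rasl10a, Wfdc21, Fcna, Wnt16, Myo7a and Cda no longer lay 2-fold above both.

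The B195AP+ array, of the other Cre line with 1 array, gave a comparison with no shared array, although Cspg4 line and CD1 mice serve in both. B195AP+ was above both other Sdc4- arrays at 60.0% of 17026 genes and below at 20.9%, and 2-fold so at 2.46% and 6.01%. Of the 161 genes lower on Myf5SOR+, 67 (41.6%) were at least 2-fold lower on B195AP+, and these are 6.54% of the B195AP+ genes lower by 2-fold. Of 88 higher genes with a value there, 23 (26.1%) were 2-fold higher on B195AP+, or 5.50% of its higher genes. Part of the B195AP+ array carried streaks of low signal: 7.02% of bright spots inside that part were off by at least 4-fold when set against the median over the arrays, against 0.787% outside it. On the Myf5SOR+ array the same part gave 0.410%, against 0.517% outside. Without that part 35 of 90 lower genes (38.9%) were 2-fold lower on B195AP+, against 1.94% of all genes left, and 13 of 46 higher genes (28.3%) were 2-fold higher, against 2.13%. Genes in both lower lists included Ucp3, Lamc3, the class I genes and Wif1, whose B195AP+ spot lay in the streaked part, whereas Igfbp5 (0.68, against 1.52 and 0.25) and Spry1 (1.02, against 0.76 and 1.501) lay between the other Sdc4- arrays. Over all 7 arrays, Myf5SOR+ was the highest for 71 of 88 higher genes (80.7%, against 17.6% of all genes) and the lowest for 94 of 161 lower genes (58.4%, against 10.5%). These genes had been chosen for lying beyond 2 of the other 6 arrays, so the shares are a description.

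**Figure D4:**
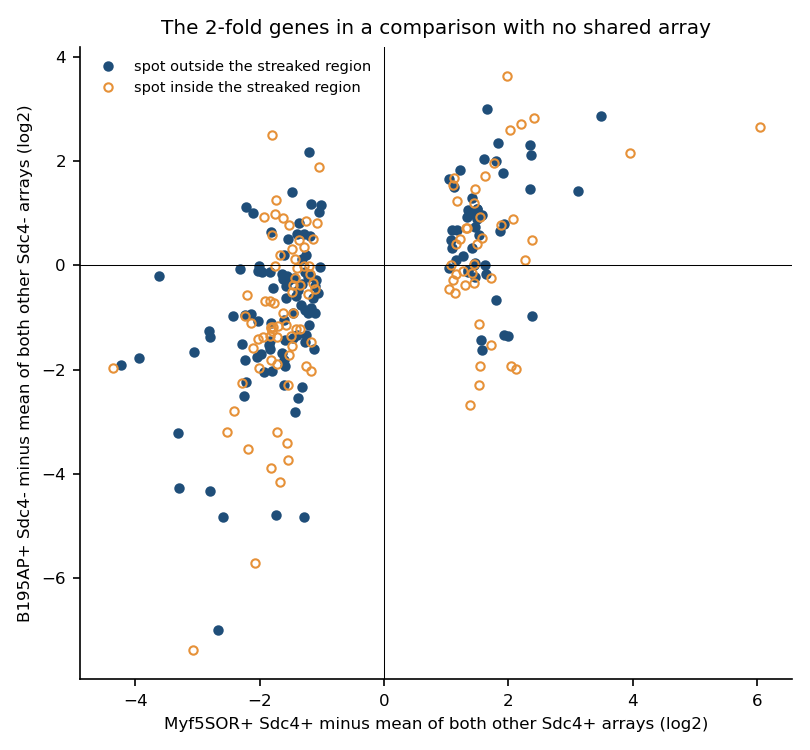
Difference of Myf5SOR+ Sdc4+ from the mean of both other Sdc4+ arrays (x axis) and of B195AP+ Sdc4- from the mean of both other Sdc4- arrays (y axis), in log2 units, for the genes at least 2-fold beyond both with a value on each array; each point is a gene and open orange points had a B195AP+ spot in the streaked part. Of 161 lower genes 129 lie below 0 on the y axis, where 28.8% of all genes lie, and of 88 higher genes 61 lie above it, where 71.2% of all genes lie.

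Markers of the animals differed too. The Y-linked genes Ddx3y (0.82, against 1.35 and -6.33) and Eif2s3y (1.42, against 1.68 and -6.50) were bright on the Myf5SOR+ and Cspg4- Sdc4+ arrays and dim on both CD1 arrays. Xist, made from the inactive X chromosome, was at -0.61, against -2.20 and 1.37. The labels do not give the sex of the animals, and its part in the differences was not tested.

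Muscle lists were read next. Over all 17332 genes Myf5SOR+ was above both others for 44.2% and below both for 22.5%, and by 2-fold for 0.514% and 0.929%. In the list of satellite cell surface and identity genes, 15 of 23 were measured on the 3 arrays, with 4 above both, 7 below both and Sdc4 and Spry1 2-fold below; the median difference was 0.04 over the 15 and -0.32 over 18 tested, dim genes included, against 0.10 over all genes tested. Met, the receptor of hepatocyte growth factor, was at -3.22, against -0.86 and -2.27, and Itga7, an integrin of muscle cells, at 1.55, against 2.34 and 2.13. Notch3 was higher (2.65, against 1.02 and 2.09), and Cd34 (5.46, against 5.66 and 4.59) and Fgfr1 (6.81, against 6.77 and 6.75) lay close to the nearer array. In the list of myogenic regulators 8 of 23 were measured, with Chrna1 alone 2-fold below. Of 39 sarcomere genes 12 were measured, with 6 above both, 3 below both and 0 by 2-fold; Myl3 was at -2.34, against -3.14 and -3.39. Of 19 brown fat and dermomyotome genes 11 were measured, with 4 above both, 0 below both and 0 by 2-fold. Of 27 heparan sulfate proteoglycan genes 24 were measured, and Sdc4 alone lay beyond both by 2-fold.

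Signalling lists held members in both directions, as did all 17332 genes, of which 44.2% were above both and 22.5% below both. Among Notch pathway genes the ligands Dll1 (-3.23, against -1.92 and -1.61) and Jag1 (-0.58, against 0.67 and 0.63) were lower, with 6 of 16 measured members above both and 6 below both. Of 22 measured Wnt pathway genes 9 were above both and 8 below both, with 3 lower by 2-fold (Wif1, Dkk2 and Rspo1) and Wnt16 higher; Lef1, a nuclear effector, was at -1.31, against -0.45 and 0.77. Of 33 measured BMP and TGF-beta genes 13 were above both and 9 below both, with Bmp4, Bmp7 and Id4 (-2.99, against -1.89 and -0.83) lower by 2-fold, while Bmp1, a procollagen protease, was at 6.43, against 5.50 and 5.70. Of 17 measured FGF genes 10 were above both and 4 below both, with Spry1 lower by 2-fold, and Fgf10, a mesenchymal growth factor, was at 1.64, against 0.58 and 0.63, with Fgf18 at 0.86, against 0.09 and -0.27. Of 12 measured insulin-like growth factor genes 5 were above both and 4 below both, with Igfbp5 and the noncoding RNA H19 (0.27, against 2.29 and 1.88) lower by 2-fold. Of 16 measured Hox genes 5 were above both and 7 below both, and Hoxb7 (-1.66, against -0.35 and -0.55) was lower by 2-fold and the lowest of the 7 arrays.

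Matrix, cell type and general lists are given by their counts, beside shares of 44.2% above both and 22.5% below both over all 17332 genes. Of 18 measured collagens 4 were above both and 6 below both, and of 23 matrix protease and inhibitor genes 6 were above both and 10 below both, none of the collagens by 2-fold. Among endothelial markers 8 of 19 were tested. Of the 7 measured on the 3 arrays 3 were above both, 1 below both and 3 between, with 0 by 2-fold in either direction. Flt1, a VEGF receptor and 1 of those above both, was at 4.68, against 2.73 and 3.73. Of 32 measured cell cycle genes 16 were below both, 2 were above both and 14 lay between, with a median difference of -0.01 from Cspg4- Sdc4+ and -0.998 from CD1 Sdc4+. Mki67 was at 2.78, against 2.68 on the Cspg4- Sdc4+ and 3.92 on the CD1 Sdc4+ array. Of 29 ribosomal protein genes 11 were above both and 0 below both, with median differences of -0.03 and 0.80, and 18 lay between. Both lists were near the Cspg4- Sdc4+ array and farther from the CD1 Sdc4+ array. Of 21 early and stress genes 10 were below both and 3 above both, with Klf2 at 0.71, against 1.93 and 1.88. Of 19 oxidative stress genes 8 were below both and 3 above both, with Gsta2 (-2.62, against -0.44 and -1.19) and Gsta4 (-2.51, against -1.47 and -0.05), glutathione transferases of a cluster of close copies on chromosome 9, lower by 2-fold. Of 25 measured chemokine and inflammation genes 9 were above both and 8 below both, with Tnf (-1.91, against 0.40 and -0.60) lower by 2-fold. Of 14 measured p53 target and senescence genes 2 were above both and 6 below both. Gdf15, a p53-responsive cytokine, alone lay 2-fold below both (1.35, against 3.10 and 2.45).

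**Figure D5:**
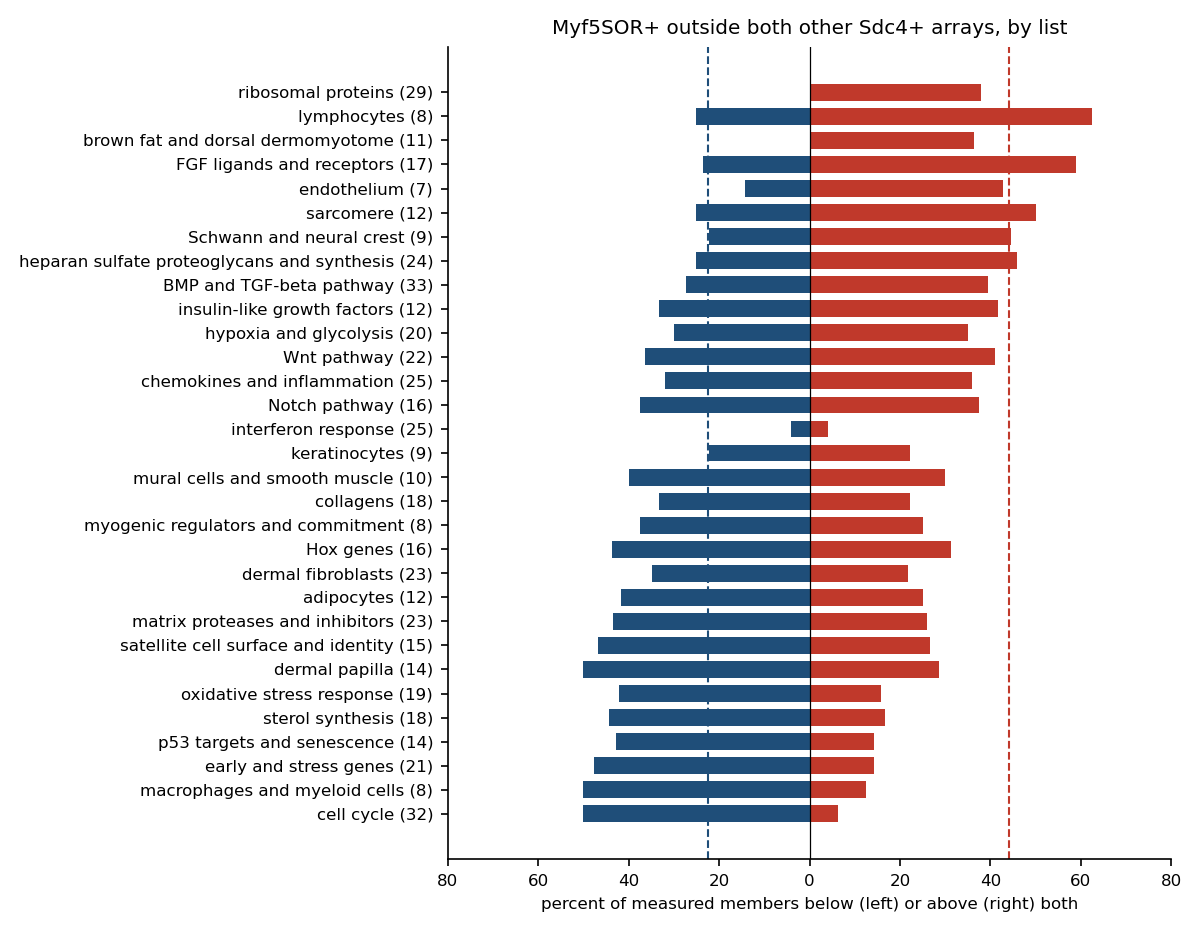
Percent of the measured members of each list for which Myf5SOR+ lay above both other Sdc4+ arrays (red, right) or below both (blue, left), with the number measured in brackets; dashed lines mark all 17332 genes (44.2% above, 22.5% below). Cell cycle genes had 16 of 32 below both and 2 above, and ribosomal protein genes had 11 of 29 above both and 0 below.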

How the data were processed

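Labelled RNA of 7 mouse cell populations was hybridised to Agilent 60-mer arrays, 1 array each, and read in 1 channel. The deposited files hold fluorescence intensity per spot, processed by Agilent Feature Extraction 11.5.1.1 with probe positions in mm9, per the file headers. The authors' deposited value table is on a log2 scale; the submitters' processing notes name lumi, its centring is unknown, and it served as an alternative.

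Levels are log2 of the processed intensity less the 75th percentile of that array. Control spots and outlier spots (137 to 168 on the Sdc4+ arrays) were left out, spots of a probe were averaged, and the probe with the highest mean stood for a gene. Of 55681 probes 27735 matched the reference gene table (GRCm38.p6, names only) by accession, 1750 of them under another symbol, and 27946 kept the name in the file. Positions within exons were not analysed here. The difference is Myf5SOR+ minus the mean of both other Sdc4+ arrays, and the gap is its distance from the nearer of both. Genes needed to be well above background on the 3 Sdc4+ arrays, or for limma 3.58.1 (R 4.3.3; 4 group means, 3 residual degrees of freedom) on at least 3 of 7; 306 of the fitted genes had a value missing on an array outside the Sdc4+ group. The script was tested on simulated data. Replicates are arrays of different lines, so SEs and p-values measure the spread between lines. The streaked B195AP+ array is among them, so for genes with a spot in its streaked part they also take in that damage.

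Named were the genes of the gates and tracers, the 15 higher and 15 lower genes with the largest gap whose second probe, if any, lay on the same side, the 10 largest bounds each way and up to 4 members of each of 37 lists by gap; RIKEN, Gm and accession names were skipped, and 2 of the lower genes, 1 of the higher genes and 1 of the bounds are not reported here. Names outside the rule (class I and its pathway, stefins, Ucp2 as a neighbour, Y-linked genes, Heyl, Myog, Isg15, Cxcl10, Mki67, Cd34, Fgfr1 and single markers) were chosen after values were seen. The populations compared and the lists were chosen with earlier results of these data known.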

Additional observations from a re-analysis of the deposited data

How the results depend on the processing

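In limma 0 genes passed an adjusted p of 0.05 under the main setting and each of the 16 alternatives, with 237 to 1154 genes at an unadjusted p under 0.05. The 89 higher and 161 lower genes numbered 26 and 67 with normexp background, 48 and 107 in the authors' deposited series table, 730 and 626 with no filter on dim probes, and 461 and 582 with genes bright on at least 1 of 7 arrays. At a 1.5-fold gap they numbered 522 and 492, and at 4-fold 6 and 13. With a single comparator left the counts were 243 and 436 (without CD1 Sdc4+) to 799 and 605 (without Cspg4- Sdc4+). Higher genes were 35.6% of the calls, and 53.8% with no filter, 51.5% at 1.5-fold, 56.9% without Cspg4- Sdc4+ and 25.3% with differences centred on the median gene, which was added after seeing the data. All 250 genes stayed outside both on the same side under the median, quantile, normexp and series settings, and 247 with the mean of a gene's probes. List medians changed sign under some settings. For BMP and TGF-beta they became -0.0508 with quantile normalization, -0.0237 in the series table and -0.0334 centred. For sarcomere genes they became 0.137 with normexp, and 0.0665 both with no filter and with genes bright on 7 of 7 arrays. Dermal papilla changed to 0.00932 with normexp and 0.0305 with no filter. Satellite genes changed to 0.208 with no filter and 0.126 on 7 of 7. Hox genes changed to 0.103 with normexp and 0.00441 without CD1 Sdc4+, but kept their sign without Cspg4- Sdc4+ (-0.127). Notch changed to 0.0799 on 7 of 7 and 0.029 without CD1 Sdc4+, but kept its sign without Cspg4- Sdc4+ (-0.206). The cause was not tested. No paired analysis was possible because each population has 1 array and the number 1 on each label pairs nothing.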
